A study of Mus musculus with 25 samples.

Results

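Mouse tibialis anterior muscle was compared with uninjured muscle 7 days after injury by eccentric contraction. The comparison holds 6 of the 25 arrays of the series, 3 muscles taken 7 days after injury and 3 uninjured control muscles, and both groups were chosen by their labels alone. Every mouse was a female C57BL/6J of 2 to 3 months. The injured muscles had undergone 150 eccentric contractions in vivo, in which an active muscle is stretched, and the control muscles received no injury. Total RNA of each muscle went onto its own Affymetrix array with 12488 probe sets, of which 10855 carry 1 gene symbol for 8252 genes. After a filter on low signals 9506 probe sets were tested, 8488 of them with 1 symbol, for 6919 genes. Muscles taken 3 days after the same contractions (3 arrays), and muscles taken 7 days after freezing with a 6 mm steel probe at dry ice temperature for 10 s (2 arrays), were used for comparison. The labels do not say whether samples came from separate mice, and p-values then reflect only how far these samples vary, which may be technical. The injured muscles in the labels are numbered 425, 439 and 453, and the controls 1, 2 and 3.

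Injured muscle is cleared of damaged fibres by invading phagocytes and is then rebuilt from satellite cells, the stem cells that lie beside each fibre. Satellite cells divide, express the myogenic regulatory factors and fuse into new fibres. Young fibres pass through a programme in which embryonic and perinatal myosins, the foetal acetylcholine receptor and the slow and cardiac troponins are made before the adult fast proteins replace them. Muscle of this type is composed mainly of fast fibres.

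A fibre-marker list checked the tissue label. The summed signal of 11 skeletal muscle fibre markers lay between 84540 and 123100 units in injured muscles and between 95340 and 164900 units in controls, and none of these markers was at 0. Signals are MAS5 values on a linear scale, and the trimmed mean of every array lay between 150.09 and 150.13. Correlations of log2 signals between arrays were 0.956 to 0.968 within the injured group, 0.938 to 0.957 within the controls and 0.930 to 0.959 between the groups. The 3' to 5' ratio of the actin control probes was 0.716, 0.652 and 0.522 in injured muscles, against 0.595, 0.560 and 0.579 in controls (two-sided exact permutation test, p = 0.5, where 3 against 3 cannot go below 0.1). One array outside the comparison bears on every test, because all 25 arrays share 1 estimate of spread. Sample 436, labelled freeze at 3 days, had correlations of 0.800 and 0.802 with the rest of its group, against 0.947 to 0.952 with the controls. Its summed macrophage marker signal was 384.4 units, against 26520 and 29040 in the others labelled freeze at 3 days and 593.3 to 799.3 in controls. Counts are therefore given with all 25 arrays and again without sample 436.

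The upstream sequences of the 6 genes with the largest rises among those called are shown, chosen by the size of the rise alone. Each is the 250 bases before the first transcription start that RefSeq lists on GRCm38.p6, written 5' to 3' on the gene's own strand, with CANNTG, the E-box that myogenic regulatory factors bind, in capitals. The windows are chr11:104550413-104550662 (plus strand), chr11:67078050-67078299 (plus), chr7:4515976-4516225 (minus), chr1:135799171-135799420 (plus, the first of 2 listed starts), chr11:67276874-67277123 (plus) and chr2:73580339-73580588 (minus).
Myl4: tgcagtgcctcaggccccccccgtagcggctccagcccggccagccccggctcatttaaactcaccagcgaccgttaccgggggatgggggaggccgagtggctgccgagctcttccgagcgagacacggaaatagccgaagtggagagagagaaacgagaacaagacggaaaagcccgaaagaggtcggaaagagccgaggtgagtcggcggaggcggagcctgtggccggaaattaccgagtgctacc
Myh3: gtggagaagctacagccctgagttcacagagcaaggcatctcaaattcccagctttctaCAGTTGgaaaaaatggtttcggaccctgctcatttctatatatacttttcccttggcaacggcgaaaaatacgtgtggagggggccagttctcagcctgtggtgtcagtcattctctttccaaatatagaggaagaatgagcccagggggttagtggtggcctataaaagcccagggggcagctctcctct
Tnnt1: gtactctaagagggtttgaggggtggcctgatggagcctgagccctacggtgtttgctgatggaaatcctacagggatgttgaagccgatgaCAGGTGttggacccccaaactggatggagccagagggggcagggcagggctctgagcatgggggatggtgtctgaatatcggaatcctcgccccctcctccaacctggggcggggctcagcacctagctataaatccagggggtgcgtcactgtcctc
Tnni1: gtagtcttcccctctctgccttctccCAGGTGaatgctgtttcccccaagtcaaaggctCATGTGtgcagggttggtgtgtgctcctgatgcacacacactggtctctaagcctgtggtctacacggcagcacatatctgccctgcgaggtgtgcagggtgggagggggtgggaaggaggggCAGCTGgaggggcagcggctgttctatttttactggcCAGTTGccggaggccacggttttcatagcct
Myh8: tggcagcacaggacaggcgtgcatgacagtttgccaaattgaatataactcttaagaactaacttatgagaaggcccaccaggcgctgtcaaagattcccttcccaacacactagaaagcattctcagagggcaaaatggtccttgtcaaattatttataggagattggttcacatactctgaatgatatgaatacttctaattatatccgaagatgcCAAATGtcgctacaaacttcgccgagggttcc
Chrna1: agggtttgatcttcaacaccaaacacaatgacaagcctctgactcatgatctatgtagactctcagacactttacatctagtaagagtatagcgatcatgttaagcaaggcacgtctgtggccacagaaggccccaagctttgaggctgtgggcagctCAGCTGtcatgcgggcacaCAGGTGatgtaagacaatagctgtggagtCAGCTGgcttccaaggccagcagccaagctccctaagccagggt
Counted in bases from the start, the E-box letters begin at -191 in Myh3, at -158 in Tnnt1, at -32 in Myh8, at -224, -191, -68 and -31 in Tnni1 and at -92, -73 and -44 in Chrna1, and Myl4 has none in this window. The form CAGCTG, which is contained in CANNTG, begins at -68 in Tnni1 and at -92 and -44 in Chrna1. The letters TATAAA begin at -29 in Myh3 and at -30 in Tnnt1, and a match to the MEF2 site lies at -99 in Myh8. CANNTG occurs in 66.2% of the 32851 windows in the table, CAGCTG in 13%, TATAAA in 7.59% and the MEF2 site, searched on both strands, in 2.92%. Of the 38 genes called higher, 32 had a window, and 22 of these held CANNTG, 5 CAGCTG, 5 TATAAA and 2 the MEF2 site. These matches are a description of letters and carry no test.

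Contraction-injured muscle at 7 days differed from control in 44 of 6919 genes (0.636%), of which 38 were higher (0.549%) and 6 lower (0.0867%). A gene was called at an adjusted p under 0.05 in limma, with Benjamini-Hochberg adjustment over the 9506 probe sets, and all differences are log2 of signal plus 13 units, injured minus control, ± SE from the fit to all 25 arrays. This scale understates the change of dim genes. The median difference over all genes was -0.0522. By probe set, 51 were called, 45 higher and 6 lower (0.537%), and 887 had an unadjusted p under 0.05. Without sample 436 the spread estimate was smaller, and 234 genes were called (3.38%), 171 higher (2.47%) and 63 lower (0.911%), among them all 44. The groups did not overlap in any of the 44, while 9.0% of all genes tested had every injured array above every control and 9.39% had every one below. Among the 38 higher genes the lowest of the injured arrays was 425 in 28 and the highest was 439 in 28. Leaving out 1 array left fewer probe sets called, 30 without injured sample 425, 13 without 439 and 13 without 453, and 25, 22 and 23 without controls 1, 2 and 3. Of the 44 genes, 9 stayed called in all 6 of those fits, namely Myl4, Myh8, Tnnt1, Atp2a2, Igf2, Ankrd1, Serpinb6a, Lrrn1 and 1810058I24Rik. Another 15 were called in none of them, namely Tnnt2, Cdkn1c, Rrad, Mt2, S100a4, S100a13, Aqp1, Rab7, Acot9, Bola2, Dlgap4, Hcfc1r1, Ndrg4, Psmb6 and Ubfd1. In whole-muscle RNA a change in the number of cells of a type and a change in RNA per cell cannot be told apart.

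**Figure D1:**
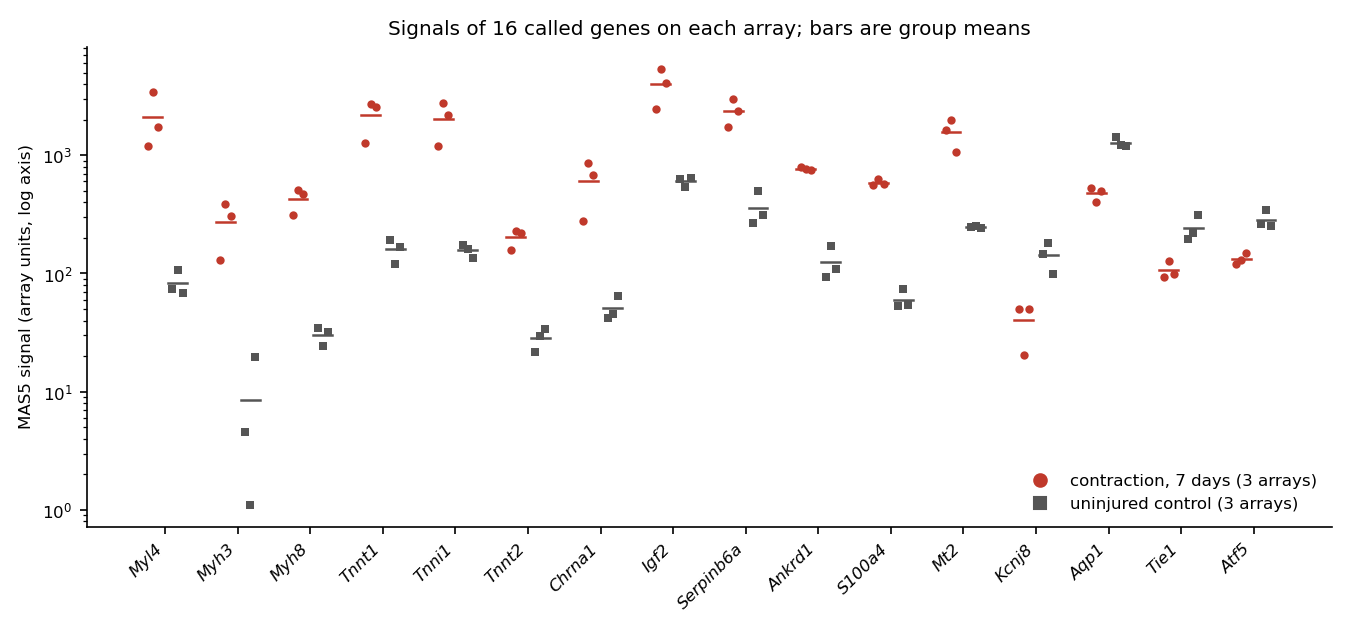
MAS5 signal (array units, log axis) of 16 called genes on the 3 arrays of contraction injury at 7 days (circles, left of each pair) and the 3 control arrays (squares, right), with group means as bars. The first 12 genes lie higher on every injured array than on any control, and Kcnj8, Aqp1, Tie1 and Atf5 lie lower on every one.

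Genes of the developing sarcomere stood at the head of the rises. Myl4, the embryonic and atrial essential myosin light chain, gave 1205.6, 3418.6 and 1715.5 units in injured muscles, against 74.2, 106.1 and 68.7 units in controls. It rose by 4.35 ± 0.52, which is 20.4-fold on this scale (limma adjusted p = 7.95e-05), and its other probe set gave 0.66 and was not called. Myh8, the perinatal myosin heavy chain, gave 310.1, 507.1 and 467.1 units in injured muscles and 34.5, 24.2 and 32.0 units in controls, a rise of 3.33 ± 0.27 (limma adjusted p = 4.27e-07). Myh3, the embryonic myosin heavy chain, gave 130.3, 383.7 and 306.7 units in injured muscles, against 4.6, 1.1 and 19.7 units in controls. These control signals lie around or below the 20th percentile of all signals, which is 13 units. Myh3 rose by 3.71 ± 0.71 (limma adjusted p = 0.0135). Tnnt2, the cardiac troponin T that embryonic skeletal muscle also makes, stood at 158.2, 228.5 and 218.5 units in injured muscles, against 21.8, 29.4 and 33.9 units in controls, and rose by 2.37 ± 0.52 (limma adjusted p = 0.0372). In each of these 4 genes every injured array lay above every control, and sample 425 was the lowest of the 3 injured muscles.

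These genes belong to a list of 10 tested embryonic and developmental muscle genes, in which some members, such as receptor subunits and Ncam1, are not sarcomere proteins. Of the 10, 5 rose and none fell, with 6 higher without sample 436. Their median difference was 2.00 against -0.0522 over all genes, and all 10 differences were above 0, which held after quantile normalization and after centring on the median, and without injured sample 439 Ncam1 alone turned to -0.06. The members not called were Chrng (1.63), Nes (1.2, called without sample 436), Myl6b (0.70), Actc1 (0.31) and Ncam1 (0.16). The list was chosen with earlier results of these data known, so its contrast with all genes is a description and no test. Chrna1, Chrng and Ncam1 are also in the list of receptor and synapse genes and are counted there too. Actc1, the cardiac actin, gave 5048.9, 7930.2 and 6605.1 units in injured muscles and 6028.2, 4669.0 and 4947.8 units in controls, so its groups overlapped. Nes, the intermediate filament of young fibres, gave 670.6, 580.1 and 598.7 units in injured muscles, against 247.9, 275.2 and 257.0 units in controls.

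The slow fibre and cardiac-type genes split. Of 11 tested, 3 rose and none fell, and the list median was 0.0239. Tnnt1, the slow troponin T, gave 1264.9, 2699.3 and 2575.8 units in injured muscles and 191.0, 119.2 and 169.0 units in controls, a rise of 3.61 ± 0.60 (limma adjusted p = 0.00468). Its second probe set gave 0.42 and was not called. Tnni1, the slow troponin I, gave 1187.1, 2747.8 and 2169.0 units in injured muscles, against 175.1, 161.5 and 135.0 units in controls, and rose by 3.51 ± 0.71 (limma adjusted p = 0.0222). Atp2a2, the calcium pump of slow and cardiac muscle, gave 125.7, 153.6 and 136.5 units in injured muscles and 13.3, 35.5 and 10.2 units in controls, a rise of 2.29 ± 0.37 (limma adjusted p = 0.00371). The third subunit of the slow troponin complex, Tnnc1, stood at 1.88 ± 0.48 and was called without sample 436 (limma adjusted p = 0.0953 with all arrays and 0.00285 without it).

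Other genes of adult slow fibres were not called higher in either fit. Myl3, the slow essential myosin light chain, gave 286.5, 199.6 and 183.5 units in injured muscles, against 1043.5, 1475.3 and 548.2 units in controls. The difference was -2.05 ± 0.55, not called with all arrays and called lower without sample 436 (limma adjusted p = 0.117 and 0.00189). Myl2, the slow regulatory light chain, stood at -0.95 ± 0.53 and Myh7, the slow myosin heavy chain, at 0.48 ± 0.30, and neither was called in either fit, although every injured array of Myh7 lay above every control. Myl2 overlapped between groups, since control 3 gave 103.4 units and injured samples 439 and 453 gave 103.9 and 121.2 units.

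Adult fast-fibre genes had a median difference near 0. Of 22 tested, 1 rose, none fell, and the median difference was -0.166, which became 0.0181 after quantile normalization. Differences above 0 were found in 3 of the 22, beside 3036 of all 6919 genes. They became 12 after quantile normalization, beside 3268 of all genes, and 6 after median centring, beside 3413. The sign of these small differences thus depended on the scaling. Cacng1, the gamma subunit of the muscle L-type calcium channel, was the one, with 2083.6, 2279.2 and 2346.1 units in injured muscles, against 807.8, 1211.5 and 692.2 units in controls (1.33 ± 0.26, limma adjusted p = 0.0141). Myh4, the fastest of the adult heavy chains, gave 12560.8, 21670.4 and 17488.1 units in injured muscles and 15067.9, 17696.2 and 30947.1 units in controls, and the difference was -0.26 ± 0.48. The parvalbumin gene Pvalb stood at -0.20 ± 0.50, and Acta1, the adult skeletal actin, at -0.13 ± 0.42. The groups overlapped in all 3, whose differences lay above 0 after quantile normalization, at 0.01 for Myh4, 0.04 for Pvalb and 0.16 for Acta1.

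The acetylcholine receptor at the nerve-muscle junction has alpha, beta, delta and epsilon subunits in adult muscle, with gamma in place of epsilon in foetal or denervated muscle. Chrna1, the alpha subunit, gave 276.3, 850.8 and 680.9 units in injured muscles, against 42.4, 45.5 and 64.2 units in controls, and rose by 3.15 ± 0.70 (limma adjusted p = 0.0402). Chrnb1, the beta subunit, gave 420.4, 673.6 and 566.8 units in injured muscles and 185.0, 338.2 and 242.7 units in controls, a rise of 1.09 ± 0.21 (limma adjusted p = 0.0167). The gamma subunit Chrng gave 65.7, 255.4 and 148.8 units in injured muscles, against 83.0, 19.3 and 24.2 units in controls. Control 1 thus lay above injured sample 425, and the difference of 1.63 ± 0.69 was not called (limma adjusted p = 0.445, and 0.0791 without sample 436). Chrnd, the delta subunit, stood at 1.04 ± 0.62 and was not called.

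The epsilon subunit gene Chrne gave no single direction, because its 3 probe sets stood at -0.52, 0.41 and 1.34, and only the last was called. Of 12 receptor and synapse genes 2 rose and none fell, with the same counts without sample 436 and a median difference of 0.394. Musk, the receptor kinase that gathers the receptor at the synapse, and Rapsn, its anchoring protein, stood at 0.37 ± 0.45 and 0.07 ± 0.18.

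Among 21 myogenic regulators and satellite cell genes none was called with all arrays and 3 were higher without sample 436, at a median of 0.238. Myog, the factor of terminal differentiation, gave 205.4, 436.4 and 390.8 units in injured muscles, against 135.0, 118.9 and 143.8 units in controls. The difference was 1.23 ± 0.57 (limma adjusted p = 0.515, and 0.0187 without sample 436). Myf6, the factor of mature fibres, gave 510.6, 1126.5 and 888.3 units in injured muscles and 414.4, 363.7 and 210.6 units in controls (1.30 ± 0.35, limma adjusted p = 0.118 and 0.0218). Myod1 stood at 0.80 ± 0.40 and Myf5 at 0.95 ± 0.37, the second on signals of 4.2 to 56.1 units, and neither was called in either fit. Injured arrays lay above every control in all 4, and the calls differed between the 2 fits. Also called higher without sample 436 was Id2 (1.60 ± 0.69, limma adjusted p = 0.453 and 0.0126). Of the 21 genes 13 had a difference above 0. The lowest were Six4 (-0.76) and Sdc3 (-0.64), and neither was called in either fit. In 6 of the 21 every injured array lay above every control, beside 9.0% of all genes. In 2 every one lay below, beside 9.39% of all genes.

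Igf2, the foetal growth factor made by differentiating myoblasts, kept its call whichever of the 6 arrays was left out. It gave 2475.4, 5376.8 and 4117.8 units in injured muscles, against 630.7, 534.6 and 636.4 units in controls, and rose by 2.64 ± 0.32 or 6.23-fold (limma adjusted p = 7.95e-05). The imprinted cell cycle inhibitor Cdkn1c, which lies in the same imprinted cluster of the mouse genome, gave 504.3, 641.2 and 471.6 units in injured muscles and 111.2, 154.5 and 111.2 units in controls (2.00 ± 0.41, limma adjusted p = 0.024). Peg3, an imprinted zinc finger gene, gave 636.9, 1367.1 and 1033.5 units in injured muscles, against 343.5, 230.9 and 433.9 units in controls (1.53 ± 0.31, limma adjusted p = 0.0228). Only 1 of its 3 probe sets was called, and the others gave 1.18 and -0.29.

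Of 21 genes of the IGF system and of imprinted growth genes 3 rose and none fell, with 5 higher without sample 436, and the median was 0.336. Igf1, the growth factor of adult muscle, gave 336.0, 365.7 and 349.7 units in injured muscles and 465.6, 276.3 and 403.7 units in controls, and the difference was -0.09 ± 0.22. The receptor Igf2r, which clears IGF2, stood at 0.72 ± 0.19 and was called without sample 436 (limma adjusted p = 0.108 and 0.00354). Igf1r stood at 0.34 ± 0.33 and Dlk1 within 0.01 of 0, and neither was called.

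Genes of stretch and cell stress remained raised in part. Ankrd1, a titin-binding ankyrin repeat protein of strained sarcomeres, gave 790.2, 766.7 and 753.9 units in injured muscles, against 92.5, 170.2 and 109.2 units in controls, and rose by 2.56 ± 0.34 (limma adjusted p = 0.000444). Rrad, a small GTPase that binds calcium channels, gave 330.2, 528.2 and 599.9 units in injured muscles and 56.0, 61.8 and 67.1 units in controls (2.70 ± 0.61, limma adjusted p = 0.0446). The metallothionein Mt2 gave 1637.4, 1990.7 and 1071.3 units in injured muscles, against 246.3, 253.5 and 240.5 units in controls (2.56 ± 0.56, limma adjusted p = 0.0372).

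Of 15 sarcomere strain and Z-disc genes 2 rose, and 5 did so without sample 436, including Csrp3 at 1.29, Hspb8 at 1.12 and desmin, Des, at 0.51. Of 20 metallothionein and antioxidant genes Mt2 alone was called, joined by Mt1 (1.37), Mt3 (0.88) and Txn1 (1.35) without sample 436. None of 17 heat shock and chaperone genes was called in either fit, and their median was -0.0462. Hspa1a gave 156.1, 120.1 and 97.3 units in injured muscles and 111.6, 45.2 and 80.2 units in controls, with overlapping groups.

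Several further rises belonged to genes outside these programmes. Serpinb6a, an intracellular serine protease inhibitor, gave 1720.5, 3011.8 and 2377.4 units in injured muscles, against 268.6, 501.6 and 312.8 units in controls, and rose by 2.68 ± 0.28 (limma adjusted p = 1.96e-05). S100a4, a calcium-binding protein of motile cells, gave 559.4, 634.8 and 568.3 units in injured muscles and 52.7, 73.9 and 53.7 units in controls (3.05 ± 0.64, limma adjusted p = 0.0266). Lgals1, a galectin of muscle and connective tissue, gave 6226.6, 8655.1 and 7294.5 units in injured muscles, against 1867.6, 2025.9 and 1209.4 units in controls (2.13 ± 0.39, limma adjusted p = 0.0106). Maged2, a MAGE family member on the X chromosome, gave 251.5, 551.2 and 688.1 units in injured muscles and 99.6, 81.1 and 28.7 units in controls (2.63 ± 0.50, limma adjusted p = 0.0135).

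Smaller in size were the rises of Lrrn1, a leucine-rich repeat membrane protein (1.78 ± 0.27, limma adjusted p = 0.00185), and Uchl1, a deubiquitinating enzyme best known from neurons (1.52 ± 0.29, limma adjusted p = 0.0135). Lrrn1 gave 93.8, 127.7 and 123.9 units in injured muscles and 28.5, 25.7 and 18.6 units in controls. S100a13 rose by 1.32 ± 0.28 (limma adjusted p = 0.0291) on 1 of its 3 probe sets. Of 23 annexin, S100 and tetraspanin genes these 2 S100 genes rose, none fell, and 20 had a difference above 0, at a median of 0.379. Without sample 436, 5 were higher, with Anxa4 (1.30), S100a6 (1.29) and Cd63 (0.94) added.

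**Figure D2:**
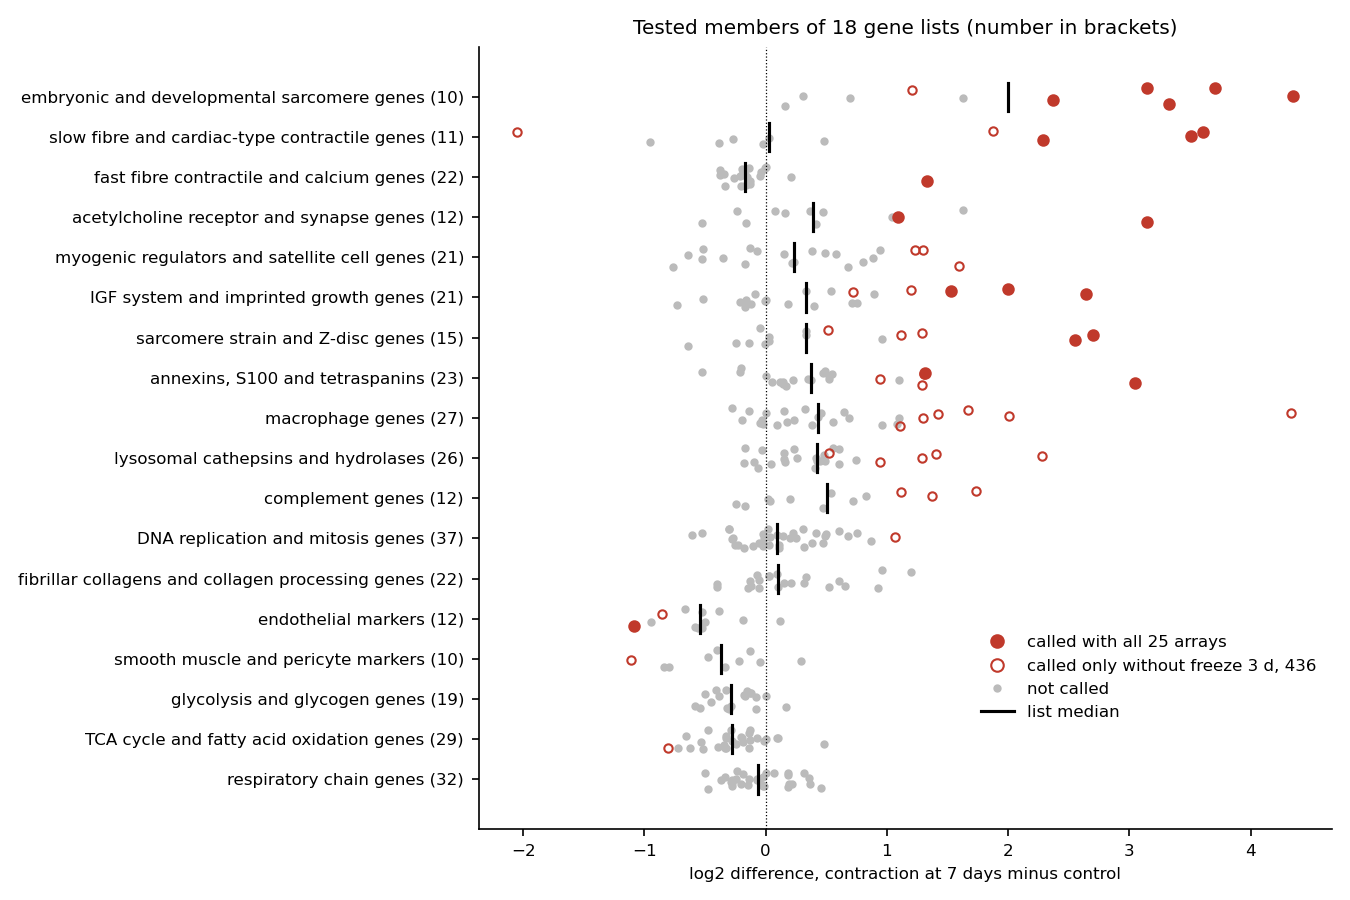
Log2 difference (contraction at 7 days minus control) of every tested member of 18 gene lists, 1 point a gene, with the list median as a black bar. Filled points were called with all 25 arrays, open points were called once sample 436 was left out, and the embryonic list has the highest median of those drawn, 2.00.

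Phagocyte genes lay above control without passing the test on all arrays. Among 12 macrophage markers none was called with all 25 arrays and 6 were higher without sample 436, at a median difference of 1.11, with 11 above 0. Their summed signal was 1202, 2866 and 1546 units in injured samples 425, 439 and 453, against 799.3, 680.5 and 593.3 units in controls. None was at 0. The order of the injured arrays in this sum, 439 highest and 425 lowest, was also their most frequent order among the 38 rises. This order was not particular to phagocyte genes. The sum of the 11 skeletal muscle fibre markers had it too, at 84540, 123100 and 112300 units in samples 425, 439 and 453. Other sums did not, such as that of the 19 glycolysis genes, at 91900, 109700 and 117300 units. The part of phagocyte content in the 38 rises was not tested.

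Lgals3, a galectin that phagocytes make in quantity, gave 572.6, 659.3 and 529.7 units in injured muscles and 27.4, 23.3 and 4.7 units in controls. Its difference of 4.34 ± 1.02 missed the threshold with all arrays and passed it without sample 436 (limma adjusted p = 0.0588 and 1.11e-09). Ctss, a lysosomal protease of antigen-presenting cells, gave 190.9, 717.8 and 449.8 units in injured muscles, against 81.9, 78.5 and 56.2 units in controls (2.28 ± 1.07, limma adjusted p = 0.522 and 0.000196). Apoe, the lipid carrier that macrophages secrete, stood at 3.04 ± 1.34 and Tyrobp, a signalling adaptor of myeloid cells, at 2.01 ± 0.97, and both were called without sample 436 alone. The defining surface marker Adgre1 gave 10.7, 14.4 and 10.9 units in injured muscles and 15.6, 5.1 and 5.5 units in controls, with overlapping groups.

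Related lists showed the same division between the fits. None of 27 macrophage genes, 26 lysosomal genes or 12 complement genes was called with all arrays, and 6, 5 and 3 were higher without sample 436, at medians of 0.436, 0.422 and 0.509. The 3 complement genes were C1qa, C1qb and C1qc, the chains of the first component. They are also among the 12 macrophage markers, so these are not separate calls. Likewise Cd68, Tyrobp and Lyz2 are in both macrophage lists and were counted in both. Of 28 interferon genes 1 was higher without sample 436, and of 23 cytokine genes Cxcl12 was lower (-0.70). Among actin and tubulin genes of non-muscle cells, 5 of 24 were higher without sample 436 and none was called with all arrays. Tmsb10, a thymosin that binds free actin, gave 1655.5, 3208.2 and 2617.1 units in injured muscles, against 249.8, 326.8 and 218.1 units in controls (3.14 ± 0.78, limma adjusted p = 0.0849 and 1.58e-08).

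Few matrix and cell cycle genes passed the test. None of 22 collagen genes was called in either fit, and their median was 0.10. Of 23 matricellular genes Postn, the matrix protein periostin, was higher without sample 436 (2.11 ± 0.81). Of 37 DNA replication and mitosis genes none was called with all arrays and Stmn1 alone without sample 436, at a median of 0.094. Stmn1 is also in the list of actin and tubulin genes and was counted there too. Cdk1, the kinase of mitosis, gave 9.0, 12.2 and 14.0 units in injured muscles and 22.8, 16.7 and 13.4 units in controls. None of 11 fibroblast markers was called in either fit, and their summed signal was 3923 to 6710 units in injured muscles, against 3341 to 6440 units in controls.

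Among the 6 falls were Kcnj8, Aqp1 and Tie1, of which Tie1 alone is in a marker list used here, the endothelial one, and the 3 are described side by side after their values were seen. Kcnj8, a potassium channel subunit of vascular smooth muscle and pericytes, gave 50.4, 20.5 and 50.4 units in injured muscles, against 146.2, 181.2 and 98.3 units in controls (-1.56 ± 0.34, limma adjusted p = 0.0322). Aqp1, the water channel of capillary endothelium and red cells, gave 530.3, 399.5 and 502.4 units in injured muscles and 1423.6, 1215.9 and 1195.8 units in controls (-1.40 ± 0.29, limma adjusted p = 0.023). Tie1, an endothelial receptor kinase, gave 92.6, 127.0 and 99.3 units in injured muscles, against 196.2, 218.5 and 313.4 units in controls (-1.08 ± 0.23, limma adjusted p = 0.0258). Aqp1 and Tie1 were each called on 1 of 2 probe sets, with the other at -0.35 for Aqp1 and -0.61 for Tie1. Centring each array on its median ended the call of all 3, at limma adjusted p-values of 0.054 for Kcnj8, 0.0505 for Aqp1 and 0.061 for Tie1.

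Most endothelial, smooth muscle and pericyte markers had differences below 0, and few passed the test. Of 12 endothelial markers 1 fell with all arrays, and Cdh5, the cadherin of endothelial junctions, was lower as well without sample 436 (-0.86 ± 0.24). Their median difference was -0.542, and 11 lay below 0, the exception being Pecam1 at 0.12. Over all genes, 3036 of 6919 had a difference above 0. The endothelial list is read beside that share. The summed signal of the endothelial markers was 1284, 1632 and 1198 units in injured muscles, against 2009, 2220 and 2212 units in controls, so the groups did not overlap. Of 10 smooth muscle and pericyte markers none was called with all arrays and Pdgfrb was lower without sample 436 (-1.11 ± 0.31). Their summed signal was 1421 to 1472 units in injured muscles and 1772 to 1948 units in controls. Their median was -0.368, and 9 lay below 0, the exception being Acta2 at 0.29. The erythroid markers summed to 744.7 to 2729 units in injured muscles and 2515 to 4054 units in controls, and none of the 5 was called. Medians below 0 were not limited to vascular lists. They were -0.436 for Schwann cell and nerve markers, -0.421 for lymphocyte markers and -0.476 for tendon and cartilage markers, with no call in either fit. Summed signals of the Schwann cell and lymphocyte lists also did not overlap between the groups. The same held, again lower in injured muscles, for lists far from vessels. These were the TGF-beta family, growth factor, heat shock and endoplasmic reticulum chaperone lists. A sum without overlap was thus not particular to the vascular lists. Macrophage, fibroblast and epithelial lists had medians above 0.

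The remaining falls were Atf5, a stress transcription factor (-1.02 ± 0.17, limma adjusted p = 0.00607), Slc27a1, a fatty acid transporter (-0.96 ± 0.19, limma adjusted p = 0.0222), and Rab7, the GTPase of late endosomes (-0.91 ± 0.19, limma adjusted p = 0.0248). Rab7 was called on 1 of 2 probe sets, with the other at -0.62. Slc27a1 gave 178.1, 138.0 and 160.0 units in injured muscles, against 391.3, 352.4 and 235.5 units in controls. After median centring Atf5 was the only fall still called. Also called lower without sample 436, and chosen after their values were seen, were Plin4, a lipid droplet coat protein (-1.52 ± 0.54), Lpl, the lipase of the capillary wall (-1.18 ± 0.32), and Cd36, a fatty acid receptor (-0.80 ± 0.29). Of these Lpl is 1 of 11 tested adipocyte markers and the only one called, again without sample 436 alone. The list median was -0.0356, with 5 above 0, among them Scd1 (0.85) and Cidea (0.67), and neither was called in either fit.

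Energy metabolism genes gave almost no call. None of 19 glycolysis genes or 32 respiratory chain genes was called in either fit, and Cd36 was the single call among 29 genes of the citric acid cycle and of fatty acid oxidation, without sample 436. Their medians were -0.283, -0.0593 and -0.279. Differences above 0 were found in 2 of the 19 glycolysis genes, 11 of the 32 respiratory chain genes and 3 of the 29 oxidation genes, beside 3036 of all 6919 genes. These counts became 5, 12 and 3 after quantile normalization, beside 3268 of all genes, and 2, 15 and 5 after median centring, beside 3413.

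The course after contraction placed the 7-day values. Myl4 averaged 83.0 units in controls and, with time after contraction, 84.7 (6 hours), 73.4 (1 day), 271.0 (3 days) and 2113 (7 days). Means of Myh8 were 30.2, 36.0, 51.0, 41.6 and 428.1 units, and those of Igf2 were 600.6, 482.3, 409.1, 772.3 and 3990 units in the same order. These 3 genes thus had their highest mean at 7 days. Ankrd1 had another course, with means of 124.0, 7123, 5280, 4004 and 770.3 units. Chrna1 stood at 50.7, 45.1, 56.8, 882.7 and 602.7 units, and Ctss at 72.2, 108.0, 265.5, 2832 and 452.8 units. Each mean rests on 3 arrays, and on 2 at 1 day.

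**Figure D3:**
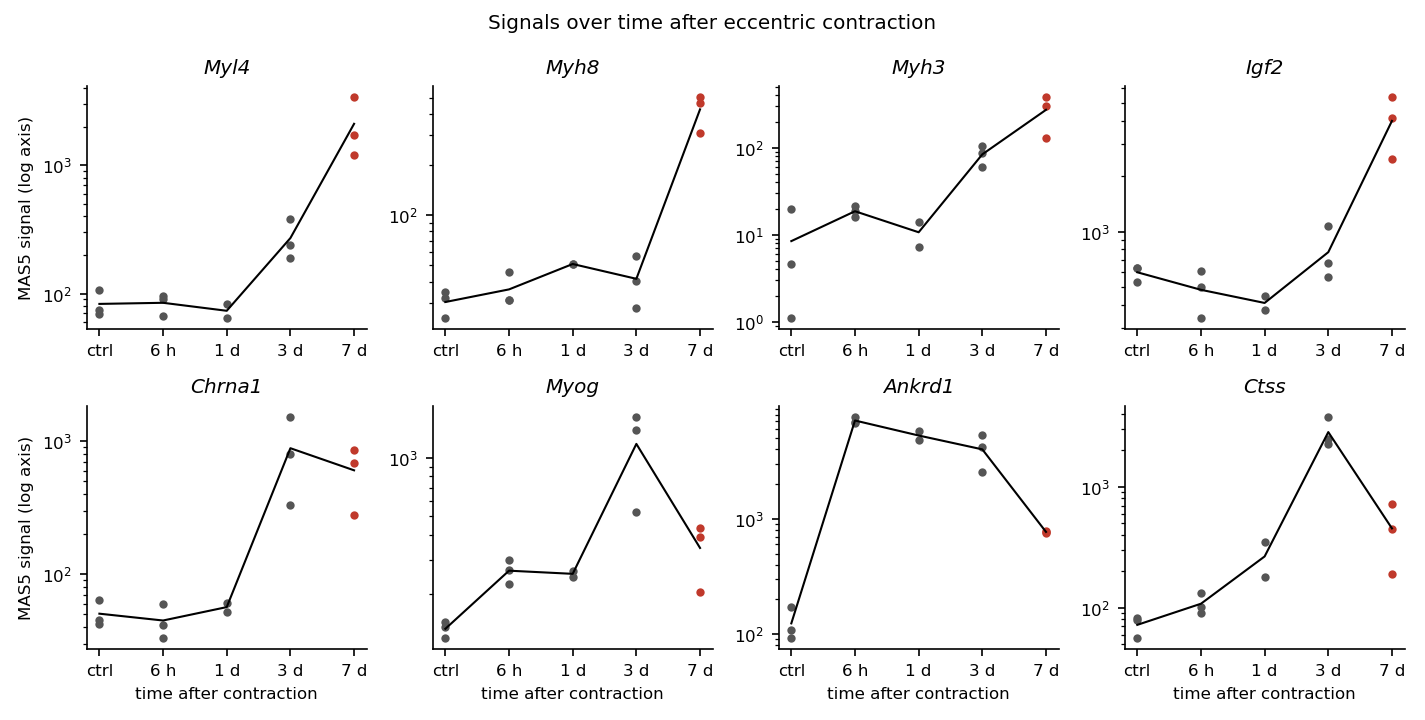
MAS5 signal (log axis, scaled per panel) of 8 genes in controls and over time after eccentric contraction (6 h, 1 d, 3 d, 7 d), 1 point per array and a line through the means, with 7 days in red. Myl4, Myh8, Myh3 and Igf2 have their highest mean at 7 days, whereas Chrna1, Myog and Ctss have theirs at 3 days and Ankrd1 at 6 hours.

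Set directly against muscle 3 days after contraction, 62 of 6919 genes were called (0.896%), 27 higher (0.39%) and 35 lower (0.506%) at 7 days, and 1020 without sample 436 (14.7%), 426 higher (6.16%) and 594 lower (8.59%). Myh8 was higher by 3.02 ± 0.27 (limma adjusted p = 2.63e-06), Myl4 by 2.82 ± 0.52 (0.00859) and Igf2 by 2.33 ± 0.32 (0.000781). Of the 10 embryonic list members 3 were higher and none lower, at a median of 0.892, and 6 were higher and 1 lower without sample 436. Gpd1, the glycerol-3-phosphate dehydrogenase of fast muscle, gave 1329.9, 1352.1 and 1351.5 units at 7 days, against 153.8, 213.4 and 258.4 units at 3 days (2.64 ± 0.44, limma adjusted p = 0.0037). It was 1 of 19 glycolysis genes called higher, where 14 were higher without sample 436 at a median of 1.18. Of 29 citric acid cycle and fatty acid oxidation genes none was called with all arrays and 20 were higher without sample 436.

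Stress, phagocyte and division genes stood lower at 7 days than at 3 days. The inducible heat shock gene Hspa1a gave 156.1, 120.1 and 97.3 units at 7 days and 682.8, 1763.1 and 3452.6 units at 3 days (-3.58 ± 0.55, limma adjusted p = 0.0025). Of 17 heat shock genes 5 were lower, and 8 without sample 436. Adgre1 gave 10.7, 14.4 and 10.9 units at 7 days, against 192.3, 130.9 and 112.2 units at 3 days (-2.63 ± 0.62, limma adjusted p = 0.0429). Of 27 macrophage genes 2 were lower, and 22 without sample 436, at a median of -1.84. Cdk1 was lower, at -2.79 ± 0.52 (limma adjusted p = 0.0102), and of 37 replication and mitosis genes it was the only call, with 22 lower without sample 436 at a median of -0.982.

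Against freeze injury at the same time, the genes that differed included several of the matrix. Contraction-injured muscle was lower than freeze-injured muscle at 7 days in 28 of 6919 genes (0.405%) and higher in none. Without sample 436 there were 551 calls (7.96%), 133 higher (1.92%) and 418 lower (6.04%), and limma gave 1028 probe sets an unadjusted p under 0.05 with all arrays. Tnc, the matrix protein tenascin C, gave 53.9, 35.4 and 36.0 units after contraction, against 537.9 and 602.2 units after freeze (-3.43 ± 0.66, limma adjusted p = 0.0218). Dlk1, an imprinted Notch-pathway ligand relative, gave 119.2, 82.0 and 110.0 units after contraction and 620.8 and 715.1 units after freeze (-2.55 ± 0.31, limma adjusted p = 0.000121). Col6a3, a chain of collagen VI, gave 418.9, 939.7 and 518.2 units after contraction, against 2877.4 and 3202.8 units after freeze (-2.34 ± 0.47, limma adjusted p = 0.0293).

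By list, 4 of 22 collagen genes, 4 of 23 matricellular genes, 2 of 14 basement membrane genes and 2 of 11 fibroblast markers were lower than after freeze, and 13, 18, 9 and 10 were so without sample 436. Their medians were -1.27, -1.57, -0.888 and -1.70. None of 27 macrophage genes was called with all arrays and 15 were lower without sample 436, at a median of -1.02. Of the 10 embryonic list members 1 was lower and none higher with all arrays, and 3 were lower and none higher without sample 436, at a median of -0.756. The 1 was Myh8, with 310.1, 507.1 and 467.1 units after contraction, against 1520.5 and 1162.9 units after freeze (-1.64 ± 0.31, limma adjusted p = 0.0204). Myl4 stood at -0.47 ± 0.58, Tnnt1 at -0.48 ± 0.67 and Igf2 at -0.62 ± 0.35, and none of these 3 was called in either fit. Lower without sample 436 alone were Myh3 (-2.11 ± 0.79, limma adjusted p = 0.319 with all arrays and 0.000675 without it) and Tnnt2 (-1.06 ± 0.58, limma adjusted p = 0.518 and 0.0215). The same held for the slow fibre genes Tnni1 (-1.16 ± 0.80, limma adjusted p = 0.597 and 0.0114) and Atp2a2 (-1.72 ± 0.42, limma adjusted p = 0.0666 and 0.000432). The freeze group had 2 arrays, and the differences that were not called do not show that those genes were at the same level. The comparisons with control, with contraction at 3 days and with freeze at 7 days share the same 3 arrays of contraction at 7 days.

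**Figure D4:**
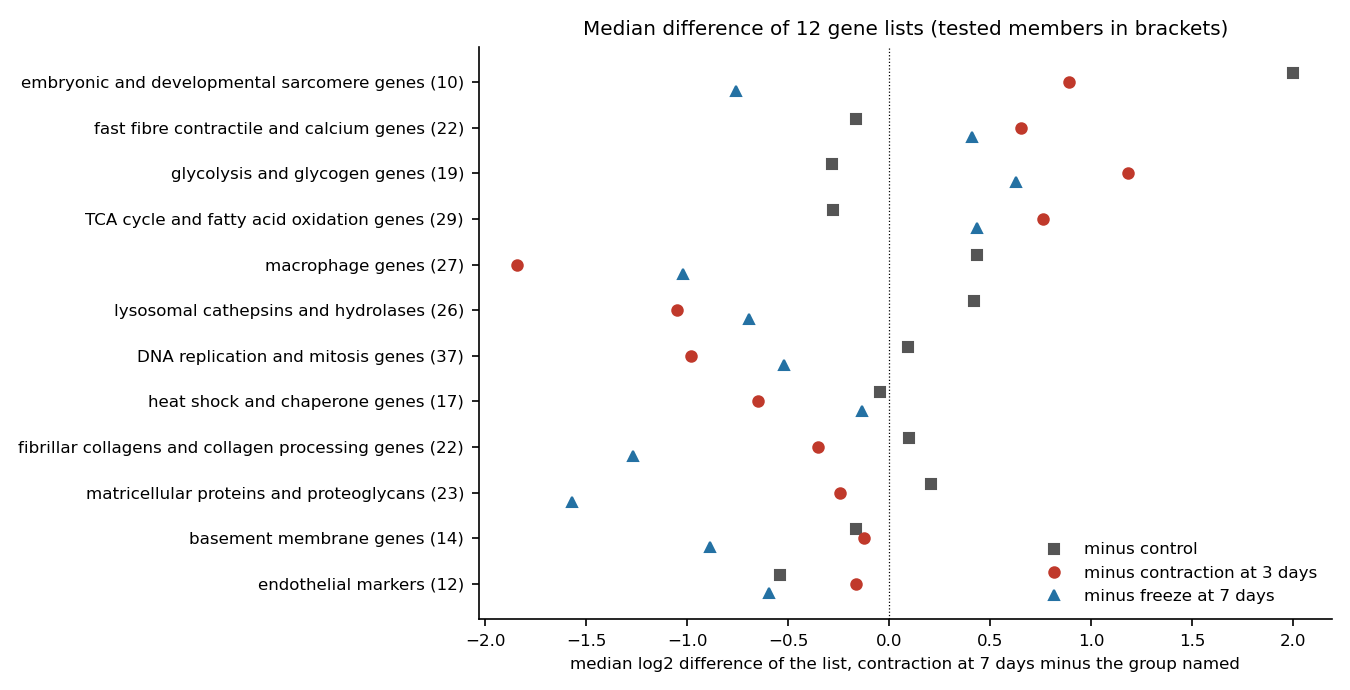
Median log2 difference of 12 gene lists for contraction at 7 days minus control (squares), minus contraction at 3 days (circles) and minus freeze at 7 days (triangles). The macrophage list lies at 0.436, -1.84 and -1.02 in these comparisons and the collagen list at 0.10, -0.352 and -1.27, and the 3 comparisons share the arrays of contraction at 7 days.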

How the data were processed

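The authors deposited MAS5 intensity signals, 1 per probe set and array, per the submitters' processing notes. No MAS5 version, detection call or genome build appears in those sources. Per the labels' protocols RNA came from TRIzol homogenates cleaned on RNeasy columns. The signals appear scaled to a common level, as each array's mean, with 2% trimmed from both ends, was 150.09 to 150.13, so changes are relative to the bulk of an array.

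Here 13 units, the 20th percentile of the signals, were added before taking log2. Tested probe sets exceeded their array's 40th percentile on 2 or more arrays, and Affymetrix controls were left out. Using lmFit and trended eBayes of limma 3.58.1 under R 4.3.3, each of 9 groups had its own mean and all 25 arrays shared the variance. Residual degrees of freedom were 16 and the prior's were 5.46. P-values are two-sided with Benjamini-Hochberg adjustment. The procedure was first checked on simulated data. Where a gene had several probe sets, the one brightest on average stands for it. Of 12488 probe sets 10855 had 1 symbol, 396 several, and 1237 are unnamed here. Named genes are the 15 largest rises and falls among genes called, at least 2-fold changed and with no overlap between the groups' arrays, list extremes and preset genes, and other list members and called genes chosen after their values were seen. Members and gene lists were chosen with earlier results of these data known. Some lists share members, among them Chrna1, Stmn1, Cd63 and C1qa, and a shared gene is counted in each. Upstream sequences are RefSeq's on GRCm38.p6. Alternatives varied the pseudocount, filter, scaling, arrays fitted, prior variance, threshold, array weights and the unit tested, and left out each array. Arrays have no read depth, and 3 arrays per group limit the precision.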

Additional observations from a re-analysis of the deposited data

Results flagged for a closer look

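The results below differ between contraction at 7 days and another injured group by a test of the difference itself, a limma contrast called at an adjusted p under 0.05. All are log2 differences, contraction at 7 days minus the other group, and the comparisons share the arrays of contraction at 7 days. Only genes already chosen for naming are listed, so they are a part of the 62 and 28 genes called.

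Against contraction at 3 days, the muscle genes Myh8 (3.02) and Myl4 (2.82), the growth factor Igf2 (2.33), Maged2 (2.20), the metabolic enzyme Gpd1 (2.64), the angiotensin precursor Agt (2.37), Hcfc1r1 (0.96) and the ciliary transport gene Ift27 (0.83) were higher at 7 days. The heat shock genes Hspa1b (-3.70) and Hspa1a (-3.58), the chemokines Ccl9 (-3.30) and Ccl6 (-1.38), the macrophage receptors Adgre1 (-2.63) and Msr1 (-2.21), the surface protein gene Plet1 (-2.86), the mitotic kinase Cdk1 (-2.79), the strain gene Ankrd1 (-2.29) and the stress factor Atf3 (-1.69) were lower at 7 days. Hspa1a and Hspa1b are near-identical genes whose probe sets can share transcripts.

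Against freeze at 7 days, every such difference was lower after contraction. Matrix and connective tissue genes among those named were Tnc (-3.43), Ccn3 (-2.42), Chpf (-2.35), Col6a3 (-2.34), Dpt (-2.26) and Mfap2 (-2.15). The other named genes were Dlk1 (-2.55), the fusion-associated protease Adam12 (-2.01), the perinatal myosin Myh8 (-1.64) and the smooth muscle actin Acta2 (-1.25). Groups of 2 or 3 arrays are too small for a test of single outlying arrays.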

How the results depend on the processing

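No called difference changed direction under any alternative. Of the differences that were not called, quantile normalization turned Acta1 to 0.16, Dlk1 to 0.04, Myh4 to 0.01 and Pvalb to 0.04, median centring turned Dlk1 to 0.04 and array weights turned it to 0.06. Leaving out 1 array in turn, the ranges that crossed 0 were -0.35 to 0.22 for Acta1, -0.20 to 0.14 for Dlk1, -0.30 to 0.07 for Igf1, -0.48 to 0.04 for Myh4, -0.06 to 0.27 for Ncam1, -0.06 to 0.48 for Pecam1 and -0.09 to 0.26 for Rapsn. Probe sets called against control numbered 51 (45 higher, 6 lower), and they lay within 1.5 times that count under other pseudocounts (52 and 51), filters (45 and 54), quantile normalization (48), median centring (49), no trend (46), robust eBayes (51) and 1 probe set per gene (48), although centring left 1 lower. They were 288 (213 higher, 75 lower) without sample 436, 148 (124, 24) with only contraction and control arrays, 159 (127, 32) with array weights, 12 (11, 1) at an adjusted p under 0.01 and 85 (73, 12) at 0.10. Leaving out 1 array gave 13 to 30 (12 to 26 higher, 0 to 4 lower). Against contraction at 3 days the count was 80, and it became 1249 without sample 436, 775 with only the groups compared, 965 with only contraction and control arrays, 1355 with array weights, 22 at 0.01 and 202 at 0.10, and 16 to 77 with 1 array left out, at 41, 39 and 30 without the 7-day samples 425, 439 and 453 and 31 and 16 without the 3-day samples 435 and 467. Against freeze at 7 days it was 35, and it became 14 at a pseudocount of 1 unit, 88 at 50 units, 23 after centring, 691 without sample 436, 598 with only the groups compared, 411 with only the arrays of 7 days and controls, 1398 with array weights, 8 at 0.01 and 84 at 0.10, and 7 to 40 with 1 array left out, at 8 and 9 without contraction samples 425 and 453 and 7 and 10 without freeze samples 440 and 454. The cause was not tested. Of the 44 genes called, 44 were called without sample 436, 38 after quantile normalization, 38 after centring and 29 with only the groups compared. No paired analysis was possible because no sample number is shared between the groups compared. The freeze numbers 440 and 454 each follow a contraction number, 439 and 453, but the labels give this no meaning and it was not used to pair arrays. Dim genes are limited by signal over background, which was not available as detection calls here.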

Other observations

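Further called rises outside the gene lists, beside those of Serpinb6a, Maged2, Lgals1, Lrrn1 and Uchl1 given above, lay between 0.84 and 1.49 on the log2 scale. Those of 2-fold or more among them were Ten1, a telomere-capping protein (1.49), Ndrg4 (1.40), Fez1, an axon transport adaptor (1.36), Tceal9 (1.18), Nabp1, a single-strand DNA binding protein (1.17), Reep5, a protein that shapes the endoplasmic reticulum (1.14), 1810058I24Rik (1.11), Bola2 (1.10) and Dlgap4 (1.08). Below 2-fold were Psmb6, a catalytic proteasome subunit (0.97), Hcfc1r1 (0.96), Ift27 (0.94), Acot9 (0.90), Capns1, the small subunit of the calpain proteases (0.89), and Ubfd1 (0.84). Some of these genes had a second tested probe set, which was not called. It gave the opposite sign for Fez1 (-0.60) and lay near 0 for Ndrg4 (-0.05). The second probe set gave 0.17 for Tceal9, 0.28 for Reep5, 0.30 for Ubfd1, 0.86 for Acot9 and 1.89 for Ift27. 1810058I24Rik gave 898.2, 1032.9 and 1051.3 units in injured muscles, against 485.6, 447.2 and 424.1 units in controls. It kept its call with each of the 6 arrays left out in turn. Ten1 gave 152.7, 140.1 and 155.0 units in injured muscles and 34.8, 65.1 and 38.1 units in controls.

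Creatine synthesis takes 2 enzymes, and the genes of both had differences above 0. The 2 genes are set side by side after their values were seen, and neither is among the 44 genes called. Gamt, the second enzyme, was called on 1 probe set (1.5, limma adjusted p = 0.00185) and not on its brighter one (0.71, limma adjusted p = 0.131). Gatm, the first enzyme, gave 160.5, 280.2 and 203.7 units in injured muscles, against 85.3, 93.3 and 73.7 units in controls (1.2 ± 0.57). It was called without sample 436 alone (limma adjusted p = 0.522 with all arrays and 0.0184 without it). Krt8, an epithelial keratin, gave 57.2, 207.1 and 118.6 units in injured muscles and 15.8, 15 and 22.4 units in controls (2.05 ± 0.57). It was the only one of 8 epithelial markers called, again without sample 436 alone. Krt18, another keratin of that list, stood at 1.84 ± 0.62, with every injured array above every control. It was not called in either fit (limma adjusted p = 0.245, and 0.0897 without sample 436). The median of the 8 was 0.117.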
